A study of Solanum lycopersicum x Solanum pennellii and Solanum lycopersicum with 17 samples.

Results

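The transcripts described here are those of carpels of the tomato cultivar M82 (Solanum lycopersicum), collected 7 days after pollination and measured on 6 arrays. M82 is the cultivated parent, whose title adds the words seed control, while tissue and source both name the carpel. All plants had the same greenhouse treatment, and no transgene, mutation or drug is recorded for M82. The series holds 17 arrays in all: beside the 6 of M82 there are 4 of line IL-1_1, 3 of line IL-1_4 and 4 of line IL-2_3, taken on the same day, whose values were not used here. Members were the probe sets with a gene symbol in the platform annotation, 909 of 10101 probe sets once the array's control probe sets were left out (9%), carrying 802 symbols. For 207 of them the symbol is only LOC and a number, and these are counted but not described. Nothing in the labels says that the 6 samples came from separate plants, so the spread given here is between samples and may be technical.

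The carpels of a tomato flower are fused into the ovary, and after pollination the ovary wall grows into the pericarp of the fruit while the ovules become seeds. In the first days of this growth the tissue is green and its cells divide, and they later enlarge by loosening their walls and taking up sugars and water. Ripening, with its burst of ethylene, wall breakdown and carotenoid accumulation, follows weeks later. An array of this kind reports a transcript by a probe set, a group of short probes whose summed brightness is given on a log2 scale, so that 1 unit is a 2-fold difference if the base, inferred here from the range of the values, is 2. How bright a probe set is depends on its probes as well as on its transcript. The order of levels below is therefore an order of signal and not of transcript number, and no gene is set against another by it. Whole carpels hold many cell types, so a low level from few cells of a type cannot be told apart from little RNA in each cell.

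The 6 arrays had medians of 9.97 to 10.04 over the 10101 probe sets, and their pairwise correlations ran from 0.950 to 0.996. No array duplicated another. As a mark of absent signal, the highest of 23 control probe sets that match no added RNA was taken on each array, which lay between 4.96 and 5.10. A stricter mark, the brightest bacterial control in the lowest 25% of each array, lay between 7.55 and 7.80, but was set by controls that carry added RNA. By it, 625 of the 909 named probe sets were above on all 6 arrays and 200 on none. Every level below is a mean ± SD over the 6 arrays (n = 6), and this number of arrays limits the precision.

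Of the named probe sets, 768 (84.5%) lay above the unspiked control level on all 6 arrays, 61 did so on some arrays and 80 (8.8%) on none. Over all 10101 probe sets, 87.8% were above it on all 6 arrays and 7.83% on none, and the counts of detected members of gene lists below are to be read against these shares. The named genes were spread from end to end of the scale, with a median level of 10.18 against 9.99 for all probe sets. Levels of 13 and above were reached by 104 named probe sets (11.4%), against 5.81% of all. Between 11 and 13 lay 240 named probe sets, between 9 and 11 lay 233, between 7 and 9 lay 126, between 5 and 7 lay 103, and below 5 another 103.

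**Figure D1:**
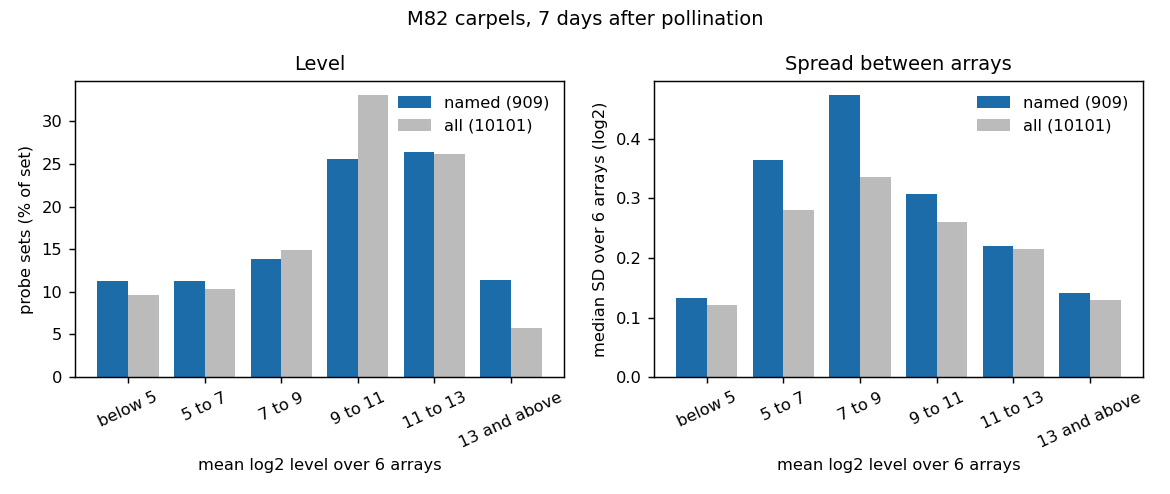
The left panel gives the share of named and of all probe sets (percent of each set) in 6 bands of mean log2 level over the 6 M82 arrays, and the right panel gives the median SD between arrays in the same bands. Named probe sets make up 11.4% of their set at 13 and above, against 5.81% of all, and the spread was largest between 7 and 9, where the median SD was 0.473 for named probe sets and 0.335 for all.

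The brightest named gene was gad2, which encodes a glutamate decarboxylase, the enzyme that makes γ-aminobutyrate from glutamate. It measured 14.41 on replicate 6 at the lowest, 14.59 at the median and 14.62 on replicate 3 at the highest, a mean of 14.57 ± 0.08. TPRP-F1, a proline-rich protein gene of young tomato fruit, followed at 14.42 ± 0.07, with TPP3 at 14.37 ± 0.07. TGAS118, which encodes a small cysteine-rich protein of the defensin type, averaged 14.24 ± 0.12, and the metallothionein-like gene LEMT1 14.24 ± 0.18. NDK, a nucleoside diphosphate kinase that keeps the nucleotide pools in balance, averaged 14.19 ± 0.02 and had the smallest SD among the brightest genes together with SODCC.1. These genes lay in a narrow range on all arrays.

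The other genes among the 20 brightest include enzymes, chaperones and parts of the protein-making machinery. TCTP, the translationally controlled tumour protein, stood at 14.13 ± 0.10, RPL3 and RPL8 of the large ribosomal subunit at 14.09 ± 0.05 and 14.08 ± 0.09, and eIF-5A4, a translation factor, at 13.90 ± 0.08. SODCC.1, the cytosolic copper and zinc superoxide dismutase, measured 14.06 ± 0.02, and HSC80, a chaperone of the HSP90 family, 13.95 ± 0.15. SAHH, which recycles S-adenosylhomocysteine after methylation, measured 13.99 ± 0.05, and SAM3, an S-adenosylmethionine synthetase, 13.92 ± 0.31. XTH16, a xyloglucan endotransglucosylase that remodels the wall, averaged 14.04 ± 0.18, TD2, a threonine deaminase known from wounded leaves, 13.90 ± 0.29, and ltpg1 13.90 ± 0.14. The remaining genes of the 20 were yfe37 (14.18 ± 0.11), ACT (14.03 ± 0.05) and 2A11. The fruit gene 2A11 was the exception in spread: it measured 13.14 on replicate 3 at the lowest, 14.15 at the median and 14.55 on replicate 6 at the highest, a mean of 13.94 ± 0.63.

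At the other end, 15 symbols had mean levels between 3.85 and 4.18, under the control level on all 6 arrays. The lowest was ANT1, a MYB factor that switches on anthocyanin synthesis (3.85 ± 0.05), followed by THM1 (3.87 ± 0.10) and the pollen receptor kinase PRK3 (3.88 ± 0.10). RIN, the MADS-box regulator of ripening, averaged 4.03 ± 0.17, and PG2, the polygalacturonase of ripe fruit, 4.08 ± 0.05. TAPG4, a polygalacturonase of abscission zones, averaged 4.05 ± 0.11, LS, the lateral suppressor regulator of side shoots, 3.97 ± 0.08, and DES, a divinyl ether synthase, 4.13 ± 0.09. PRK2 (3.97 ± 0.09), CEVI-1 (3.91 ± 0.10), Dif54 (4.02 ± 0.04), TCTR1v (4.05 ± 0.17), AAT (4.11 ± 0.13), vis1 (4.15 ± 0.10) and NRAMP1 (4.18 ± 0.11) made up the rest. A level under the control level means that these probes gave no signal above it, which is not proof that the transcript is absent.

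The label of carpel was set against its markers. AG1, the AGAMOUS-type gene that specifies stamens and carpels, averaged 11.96 ± 0.47. AGL11, of the ovule-specifying class, averaged 11.35 ± 0.46, and TAGL1, a SHATTERPROOF-type gene of carpel and fruit, 10.96 ± 0.14. TDR4, the tomato FRUITFULL homologue, averaged 8.61 ± 0.56. All of these were above the control level on all 6 arrays. TDR8, also called TM8 and planned as a carpel and young fruit marker, averaged 5.32 ± 1.56 and was above it on only 3 arrays. TDR6 at 12.63 ± 0.12 and MADS1 at 10.44 ± 0.11 were above the control level on all 6 arrays, but are not counted here as carpel markers. TDR6, also called TM6, was planned as a stamen and petal marker, and its mean was above that of AG1. The planned stamen and petal markers were thus not all dim. TPI was planned as a stamen and petal marker too. Its probe sets averaged 5.48 ± 0.79 and 4.97 ± 0.47, each above the control level on 3 arrays, so it did not read as absent throughout. Of the 8 MADS-box probe sets 6 were above it on all arrays, RIN was above it on none, and TDR8 on 3, as described below.

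Pollen and stigma markers were mostly at the bottom. Of 6 probe sets, 5 were never above the control level: the pollen receptor kinases PRK1 (4.57 ± 0.07), PRK2 and PRK3, the pollen gene Shy (4.29 ± 0.14) and the stigma gene Stig1 (4.19 ± 0.22). LAT61, named for late anther development, was the exception at 12.35 ± 0.21. The ripening list had 12 probe sets, of which 5 were above the control level on all arrays, 4 on some and 3 on none. Those at none were RIN, PG2 and NOR (4.54 ± 0.20), a NAC regulator of ripening. E8, a gene of ripening fruit, averaged 5.14 ± 0.27 and was above it on 3 arrays. The ripening-type ethylene synthesis genes ACS2 and ACS4 averaged 5.78 ± 0.23 and 5.22 ± 0.15. Psy1, the phytoene synthase of fruit carotenoids, has 3 probe sets, which ranged from 4.94 ± 0.37 to 10.03 ± 0.25. The β-galactosidase TBG4 (9.61 ± 0.21) and the expansin EXP1 (8.21 ± 0.27) were above the control level throughout.

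**Figure D2:**
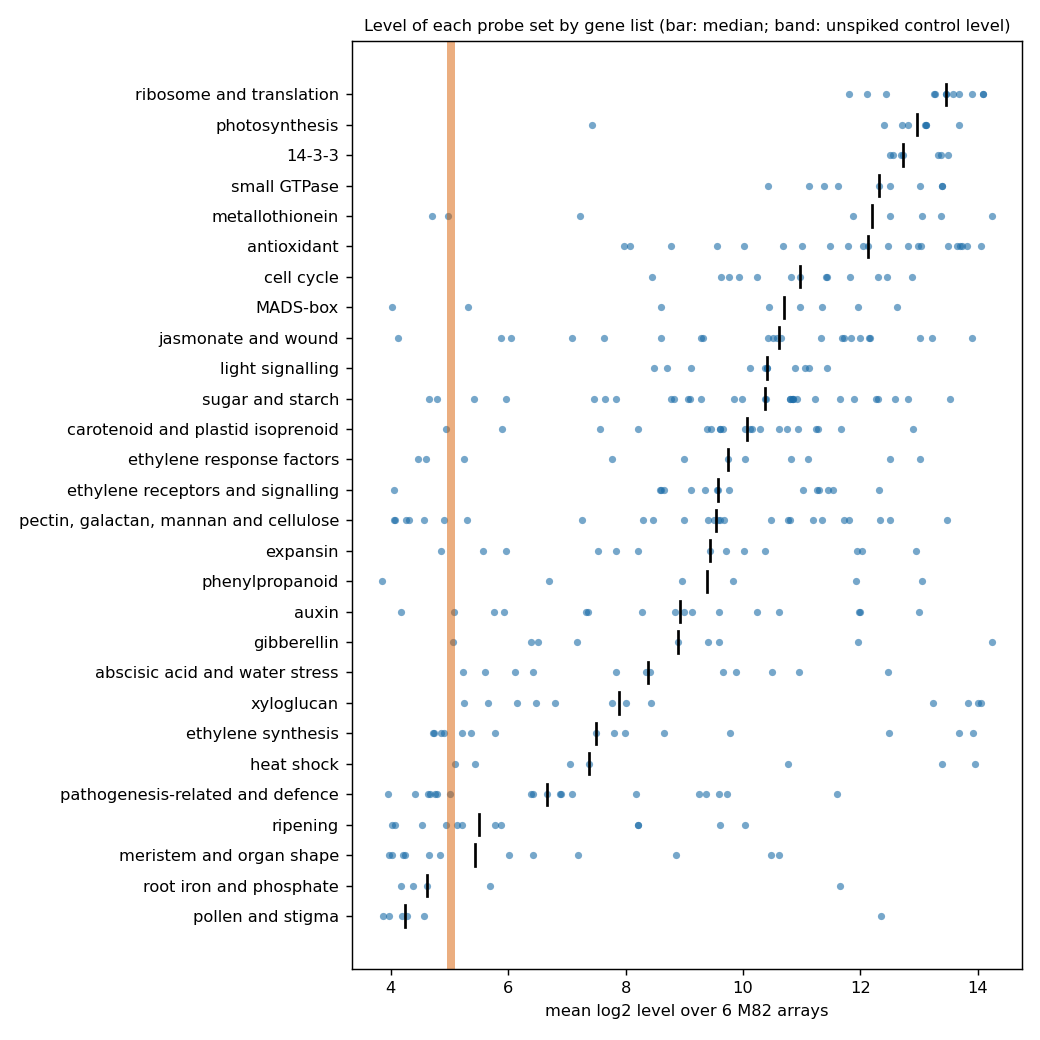
Each point is the mean log2 level of a probe set over the 6 M82 arrays, by gene list, with lists ordered by their median (black bar) and the unspiked control level of 4.96 to 5.10 shaded. Ribosome and translation genes have the highest median, 13.46, and pollen and stigma genes the lowest, 4.24, with LAT61 alone at 12.35.

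The 13 cell cycle probe sets lay between 8.46 and 12.88, and 13 of 13 were above the control level on all 6 arrays, against 87.8% of all probe sets. CYCD3, the D-type cyclin that drives entry into the cycle, averaged 12.88 ± 0.19. CDKB2 and CDKB1, plant kinases of the division phase, averaged 12.44 ± 0.42 and 11.82 ± 0.34, and PCNA, the sliding clamp of replication, 12.30 ± 0.22. CycB2, a mitotic cyclin, measured 7.42 on replicate 6 at the lowest, 8.73 at the median and 9.05 on replicate 5 at the highest. Replicate 6 was the lowest array for 7 of the 13 probe sets, which were CYCD3, CDKB2, CDKB1, PCNA, CycA1, CycA2 and CycB2. Among all 10101 probe sets, replicate 6 was lowest for 15.1%. CycA1 and CycA2, cyclins of replication, averaged 11.42 ± 0.44 and 9.92 ± 0.47.

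Genes of translation and signalling proteins had high levels and mostly small spreads. Bright probe sets had small spreads in general, with a median SD of 0.141 for named probe sets at 13 and above. The 12 ribosome and translation probe sets had a median level of 13.46 and a median SD of 0.0883, which rpl38 exceeded at 12.43 ± 0.36. Within them eIF-5A1, of the same family as eIF-5A4, stood apart in spread, measuring 11.35 on replicate 2 at the lowest, 11.73 at the median and 13.40 on replicate 1 at the highest. The 7 genes of the 14-3-3 family, adaptors that bind phosphorylated proteins, lay between 12.50 and 13.48, with tft10 at 13.48 ± 0.07 and TFT7 at 12.50 ± 0.12. In the same family, tft8 (12.72 ± 0.34) and TFT3 (12.70 ± 0.25) spread more. The 9 small GTPase genes, which steer nuclear transport and vesicle traffic, lay between 10.42 and 13.39, with RAN1 at 13.39 ± 0.07 and Rab11a at 10.42 ± 0.08. All 28 probe sets of these groups were above the control level on all 6 arrays, and eIF-5A1 was the only member with an SD of 0.5 or more.

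Photosynthesis genes were bright, and they moved together between arrays. PSBR, PSBO, PSBP and PsbQ, proteins of the oxygen-evolving side of photosystem II, averaged 13.68 ± 0.18, 13.12 ± 0.51, 13.09 ± 0.41 and 13.11 ± 0.41. PETE, plastocyanin, averaged 12.82 ± 0.76, and the light-harvesting gene CAB6A 12.71 ± 0.69. CAB4, another light-harvesting chlorophyll protein, measured 10.17 on replicate 1 at the lowest, 12.67 at the median and 13.56 on replicate 4 at the highest, a 10.5-fold range. CAB5 measured 5.25 on replicate 1 at the lowest, 7.31 at the median and 9.38 on replicate 4 at the highest. For 8 of 8 probe sets the lowest array was replicate 1 and the highest replicate 4. Over all 10101 probe sets these arrays were lowest and highest for 27.3% and 14.1%. The 28 pairs of photosynthesis genes had a median correlation of 0.964 over the 6 arrays, and 20 were above 0.9. Pairs of different symbols among all named probe sets, many of which hardly vary, had a median of 0.0257. Where both were detected on all arrays with an SD of at least 0.5, the median was 0.0912 and 17% lay beyond 0.9 in either direction. Of the 8 photosynthesis probe sets, 5 reached that SD.

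Genes that loosen and rebuild the cell wall covered the range from bright to undetected. Expansins, which loosen walls in growing tissue, had 12 of 13 probe sets above the control level on all arrays. EXP5 averaged 12.95 ± 0.33, exp9 12.02 ± 0.21 and EXPA3 11.94 ± 0.19, while EXPA8, at 4.85 ± 0.05, was never above it. EXP2 measured 8.15 on replicate 1 at the lowest, 9.52 at the median and 10.34 on replicate 4 at the highest. In the xyloglucan list, 3 probe sets of XTH16 lay between 13.83 ± 0.17 and 14.04 ± 0.18. XTH1, of the same enzyme family, measured 11.28 on replicate 1 at the lowest, 13.68 at the median and 13.82 on replicate 4 at the highest. Replicate 1 thus lay well below the other arrays for XTH1. Xegip, an inhibitor of a xyloglucan-degrading glucanase, measured 4.51 on replicate 1 at the lowest, 6.49 at the median and 7.49 on replicate 6 at the highest, and was above the control level on 4 arrays. XTH6 and XET2 averaged 6.47 ± 0.92 and 5.66 ± 0.81.

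Enzymes of pectin, galactan, mannan and cellulose had 19 of 26 probe sets above the control level on all arrays, 3 on some and 4 on none. PMEU1, a pectin methylesterase found in most tissues, averaged 13.47 ± 0.10, Cel3, a membrane-anchored endoglucanase, 12.51 ± 0.10, and the β-galactosidase TBG6 12.33 ± 0.27. Cel1, a secreted endoglucanase, measured 8.82 on replicate 6 at the lowest, 10.98 at the median and 12.27 on replicate 3 at the highest, a 10.9-fold range with replicates 3 and 6 at its ends. The mannanase gene MAN2 measured 6.88 on replicate 4 at the lowest, 8.60 at the median and 9.78 on replicate 3 at the highest. CELLULASE and cel5 averaged 11.18 ± 0.62 and 7.27 ± 0.55. TAPG1, an abscission polygalacturonase, averaged 4.57 ± 0.56 and rose above the control level on replicate 6 alone, at 5.63.

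Of the sugar and starch probe sets, 28 of 30 were above the control level on all 6 arrays, near the 87.8% of all probe sets. FRK2, a fructokinase that feeds imported sugar into metabolism, averaged 13.53 ± 0.41, and AI, the acid invertase, 12.58 ± 0.19. The cell wall invertases, which split sucrose outside the cell, differed in how they varied. The invertase gene lin5 was steady, at 12.80 ± 0.19. LIN7 measured 6.56 on replicate 1 at the lowest, 9.55 at the median and 10.26 on replicate 5 at the highest, and Wiv-1 6.63 on replicate 4 at the lowest, 7.54 at the median and 9.18 on replicate 1 at the highest. LIN7 was thus lowest and Wiv-1 highest on replicate 1. FRK3, another fructokinase, measured 11.32 on replicate 1 at the lowest, 12.48 at the median and 12.64 on replicate 4 at the highest. The 3 probe sets of the β-amylase gene BMY3 averaged 10.83 ± 0.74, 10.39 ± 0.56 and 9.09 ± 0.76, and all were lowest on replicate 5. FRK4 (4.78 ± 0.14) and GolS-1, a galactinol synthase (4.65 ± 0.09), were never above the control level.

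Among genes of ethylene synthesis, the 2 S-adenosylmethionine synthetases SAM3 and SAM1 (13.68 ± 0.30) were bright, and ACO4, an ACC oxidase that makes ethylene in the last step, averaged 12.48 ± 0.64. ACO6, also an ACC oxidase, had the widest spread of all symbols other than LOC numbers. Its probe set with the highest level measured 7.21 on replicate 4 at the lowest, 9.71 at the median and 12.17 on replicate 1 at the highest, a 31.2-fold range. Its next probe set spanned 46.1-fold, with a mean of 8.65 ± 2.56. Its dimmest averaged 7.81 ± 2.77 and reached 10.87 on replicate 1, but was not above the control level on 2 arrays, so no fold is given for it. Replicates 1, 6 and 3 were high and replicates 2, 4 and 5 low for the 3 probe sets. The ACC synthases, which set the rate of ethylene production, were dim: ACS3 (4.74 ± 0.10) and ACS8 (4.73 ± 0.14) were never above the control level.

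The ethylene receptors and signal carriers were detected with 14 of 15 probe sets on all arrays, TCTR1v being the exception. EIL1, EIL2 and EIL3, transcription factors at the end of the pathway, averaged 12.32 ± 0.37, 11.54 ± 0.73 and 11.30 ± 1.003. The receptor gene ETR4 averaged 11.44 ± 0.42, ETR5 8.61 ± 0.81 and ETR6 8.65 ± 1.17. EIL3 measured 10.35 on replicate 4 at the lowest, 10.96 at the median and 12.75 on replicate 1 at the highest. EIN2, the membrane protein in the middle of the pathway, averaged 8.59 ± 0.35. The highest array was replicate 1 for 11 of the 15 probe sets, against 35.1% of all probe sets, and the median correlation over the 105 pairs of different genes was 0.695.

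Of the ethylene response factors, 8 of 11 probe sets were detected on all arrays. JERF1 and JERF3 averaged 13.02 ± 0.23 and 12.51 ± 0.25, and ERF2 11.11 ± 0.48. PTI4, a response factor first found as a partner of the resistance kinase Pto, measured 7.70 on replicate 5 at the lowest, 8.44 at the median and 10.89 on replicate 1 at the highest, and ERF4 6.34 on replicate 5 at the lowest, 7.29 at the median and 9.61 on replicate 1 at the highest. Both were highest on replicate 1 and lowest on replicate 5. PTI6 averaged 10.04 ± 0.64. PTI5 averaged 5.25 ± 0.999 and was above the control level on 2 arrays, and EREB (4.46 ± 0.16) on none.

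Auxin genes had 14 of 16 probe sets detected on all arrays, about the same share as the 87.8% of all probe sets. The Aux/IAA repressors IAA27 and IAA16 averaged 11.98 ± 0.14 and 11.98 ± 0.13, ARPI 12.99 ± 0.78, and the auxin-binding protein gene ERABP1 10.61 ± 0.12. IAA17 measured 8.04 on replicate 1 at the lowest, 9.21 at the median and 9.97 on replicate 4 at the highest. Of the gibberellin genes, SPY, which restrains gibberellin responses, averaged 11.96 ± 0.24, GAI, the DELLA repressor, 9.41 ± 0.55, and GA20OX1, which makes gibberellin precursors, 9.58 ± 0.69. GA3ox1, the enzyme of the last activating step, measured 6.30 on replicate 4 at the lowest, 6.96 at the median and 8.42 on replicate 1 at the highest. CPS, which starts the pathway, averaged 5.05 ± 0.28 and exceeded the control level on 4 arrays.

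All 12 genes of abscisic acid and water stress were above the control level on 6 arrays. LEA14, a late embryogenesis protein gene, averaged 12.47 ± 0.12, DREB3 10.95 ± 0.63 and FLACCA, needed for the last step of abscisic acid synthesis, 9.88 ± 0.38. NCED1, which sets the rate of that synthesis, measured 7.68 on replicate 2 at the lowest, 7.93 at the median and 9.98 on replicate 1 at the highest, and JA2, a NAC factor, 5.19 on replicate 5 at the lowest, 6.22 at the median and 7.72 on replicate 1 at the highest. Replicate 1 was highest for 9 of the 12 probe sets, against 35.1% of all. AREB1, a bZIP factor of the abscisic acid response, averaged 7.85 ± 0.62, and NHX1, a sodium and proton exchanger, 8.41 ± 0.996.

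Jasmonate and wound genes had 20 of 22 probe sets detected on all arrays. LAPA2, a leucine aminopeptidase of wounded leaves, averaged 13.22 ± 0.08, cathDInh, a cathepsin D inhibitor, 13.02 ± 0.73, and AOC, the allene oxide cyclase of jasmonate synthesis, 12.16 ± 0.21. The lipoxygenase loxD, which starts jasmonate synthesis, measured 9.75 on replicate 4 at the lowest, 10.35 at the median and 12.28 on replicate 1 at the highest. LOX1.1 averaged 9.29 ± 0.98. The 3 probe sets of the arginase gene ARG2 averaged 11.68 ± 0.73, 11.33 ± 0.82 and 9.32 ± 1.08. Replicate 1 was the highest array for 14 of the 22 probe sets and the lowest for 6, against 35.1% and 27.3% of all probe sets.

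Pathogenesis-related and defence genes had lower levels, with a median of 6.66, and 12 of 19 probe sets were detected on all arrays. GLUII, a β-1,3-glucanase, averaged 11.60 ± 0.19, and NPR1, the regulator of salicylate-induced resistance, 9.72 ± 0.11. The chitinase gene CHI3 measured 5.62 on replicate 4 at the lowest, 7.90 at the median and 10.50 on replicate 6 at the highest, a 29.3-fold range, and CHI17 8.13 on replicate 4 at the lowest, 9.30 at the median and 11.14 on replicate 1 at the highest. Eix1, a receptor for fungal xylanase, measured 5.14 on replicate 4 at the lowest, 6.58 at the median and 9.83 on replicate 1 at the highest, a 25.8-fold range. PR-P2, of the PR-4 family, measured 5.24 on replicate 4 at the lowest, 6.25 at the median and 8.56 on replicate 6 at the highest. These 4 genes were high on replicates 1 and 6 and lowest on replicate 4. The 2 probe sets of PR1b1 averaged 4.64 ± 0.63 and 3.95 ± 0.16, and the subtilase gene P69B averaged 4.42 ± 0.32.

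Of the 7 heat shock probe sets, 5 were detected on all arrays. The HSP90 genes HSC80 and Hsp90-1 (13.39 ± 0.10) were bright. The small heat shock gene HSP17-6 averaged 10.76 ± 0.20, and MTSHP, HSP21, HSP17.4 and ER-SHSP averaged 7.38 ± 1.13, 7.05 ± 0.63, 5.43 ± 0.62 and 5.09 ± 0.15. All 21 antioxidant probe sets were detected on 6 arrays, with GPXle-2, a glutathione peroxidase, at 13.81 ± 0.12, DHAR1, a dehydroascorbate reductase, at 13.73 ± 0.11, TPx1, a thioredoxin peroxidase, at 13.69 ± 0.09 and catalase cat1 at 12.99 ± 0.36. Of the metallothionein-like genes, LEMT1 and MT4 (13.37 ± 0.39) were bright, and MT2 and MT3 averaged 4.97 ± 0.73 and 4.70 ± 0.22. Replicate 5 was lowest for 6 of the 8 metallothionein probe sets, against 18.9% of all probe sets.

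Plastid isoprenoid and carotenoid genes were detected on all arrays for 19 of 20 probe sets, with a median SD of 0.198. HDS, DXS, DXR and ISPE, of the plastid pathway to isoprenoid units, averaged 12.89 ± 0.15, 11.68 ± 0.17, 11.25 ± 0.27 and 11.28 ± 0.36. NSY, the neoxanthin synthase, averaged 7.56 ± 0.51. In the phenylpropanoid list, hqt, the enzyme of chlorogenic acid synthesis, averaged 13.05 ± 0.32. The chalcone synthases CHS1 and CHS2, at the entry to flavonoids, averaged 11.92 ± 0.57 and 9.82 ± 1.16, and DFR, on the way to anthocyanins, 6.70 ± 0.53. CHS2 measured 8.45 on replicate 1 at the lowest, 9.62 at the median and 11.68 on replicate 6 at the highest.

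All 11 light signalling probe sets were detected on 6 arrays, including the phytochrome gene PHYA (11.12 ± 0.16), COP1 and DET1, repressors of the light response (10.41 ± 0.33 and 8.70 ± 0.25), and HY5, its activator (10.40 ± 0.24). Of the transporters and iron genes best known from roots, PT1, a phosphate transporter, was bright at 11.66 ± 0.71. PT2 averaged 5.70 ± 0.51, while the iron reductase gene FRO1 (4.61 ± 0.12), its regulator FER (4.38 ± 0.09) and NRAMP1 were never above the control level.

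Regulators of meristems and organ shape were split. T6, a KNOX homeobox gene, averaged 10.48 ± 0.51. The fruit gene fsm1, a small MYB-like protein of young fruit, measured 8.64 on replicate 4 at the lowest, 10.34 at the median and 12.73 on replicate 1 at the highest, a 17-fold range. OVATE, whose loss makes pear-shaped fruit, measured 7.41 on replicate 2 at the lowest, 8.92 at the median and 10.31 on replicate 1 at the highest. Both were high on replicates 1 and 6 and low on replicates 2 and 4. The KNOX genes KN4, TKN3 and KN1 averaged 7.19 ± 0.52, 6.42 ± 0.99 and 6.02 ± 0.82, each highest on replicate 3. SP, the self-pruning gene, averaged 4.66 ± 0.04, FALSIFLORA, the LEAFY homologue, 4.24 ± 0.14 and KD1 4.21 ± 0.09, none above the control level on any array. WUS, the stem cell regulator, averaged 4.84 ± 0.31 and exceeded it on 2.

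The spread between arrays depended on level. The median SD of the named probe sets was 0.257, against 0.232 over all probe sets. By band it was 0.141 at 13 and above, 0.22 between 11 and 13, 0.307 between 9 and 11, 0.473 between 7 and 9, 0.365 between 5 and 7 and 0.133 below 5. An SD above 1 was found in 49 named probe sets (5.39%), against 2.69% of all, and an SD under 0.1 in 120. Leaving out each array in turn moved the count above 1 between 42 and 60.

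The widest spreads belonged to ACO6, TSW12, CHI3, Eix1, twi1 and CAB5 among symbols other than LOC numbers. TSW12, a lipid transfer protein gene, measured 7.18 on replicate 4 at the lowest, 9.46 at the median and 12.48 on replicate 6 at the highest, and twi1, a glucosyltransferase gene induced by wounding, 5.75 on replicate 2 at the lowest, 6.23 at the median and 10.08 on replicate 1 at the highest. TSW12, twi1 and the brighter PR1b1 probe set were named after their values were seen. TDR8, a MADS-box gene, measured 4.13 on replicate 2 at the lowest, 4.81 at the median and 8.22 on replicate 1 at the highest. Replicate 1 thus lay far above the rest for TDR8, and 3 arrays were under the control level. RBOH1, a respiratory burst oxidase, averaged 8.91 ± 1.05, ODC, the ornithine decarboxylase of polyamine synthesis, 11.78 ± 0.90, and TLRP 11.26 ± 1.02. The genes sph1 (11.47 ± 1.03), BR1 (11.03 ± 0.95), NML2 (10.18 ± 0.92), DDTFR18 (9.99 ± 0.94), DIG3 (9.69 ± 1.04) and Dea1 (8.78 ± 1.06) were among the 20 with the largest SD of those whose brightest probe set was above the stricter mark on all 6 arrays, a limit that leaves out ACO6, CHI3 and Eix1.

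The 8 steadiest genes, among those above the stricter mark on all 6 arrays, had levels of 12.83 and above. NDK ranged over 14.16 to 14.21 and SODCC.1 over 14.02 to 14.08. The translation factor eIF-5A2 averaged 13.46 ± 0.04, profilin, an actin-binding protein, 13.10 ± 0.04, and TIM10, of mitochondrial protein import, 12.93 ± 0.04. TAL, a transaldolase, averaged 12.90 ± 0.05 and CIP2a 12.83 ± 0.04. Their SDs lay far under the median SD of 0.257, which pools all levels. At levels like theirs spreads were smaller for named probe sets in general, with a median SD of 0.141 at 13 and above and 0.22 between 11 and 13.

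**Figure D3:**
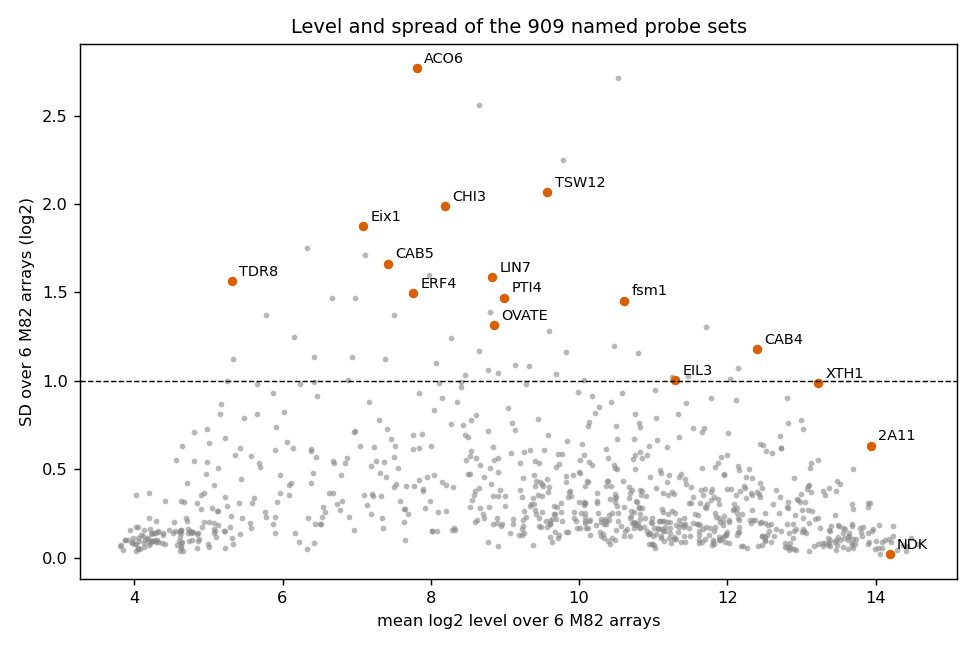
Each point is a named probe set, with its mean log2 level on the horizontal axis and its SD over the 6 M82 arrays on the vertical axis, and 16 genes are marked by the probe set with their largest SD. The spread is small at both ends of the scale and widest in the middle, with ACO6 at 2.77 and NDK at 0.02, and the dashed line is the SD of 1 exceeded by 49 of 909.

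Much of the variation ran along a single direction. The first principal component of the 6 arrays over the named probe sets held 67.2% of the variance and the next 15.9%. Scores on the first were 18.70 for replicate 1, 9.81 for replicate 6, 2.27 for replicate 3, −9.27 for replicate 2, −9.63 for replicate 5 and −11.88 for replicate 4. A component computed without the named probe sets gave scores that correlated with these at 0.991. An SD of at least 0.5 was found in 213 named probe sets (23.4%, against 14.7% of all). Replicate 1 was the highest array for 104 of these and the lowest for 46, so it was at an end of the range for 70.4% of them. Among all 10101 probe sets, with no limit on SD, replicate 1 was highest for 35.1% and lowest for 27.3%, so it was often at an end there too. High ends outnumbered low ends more strongly among the 213. Among the 213 named probe sets, 68 correlated above 0.9 with the component and 16 below −0.9. The same counts over all 10101 probe sets were not computed, so nothing particular to the named genes is read from them. Without replicate 1 the counts were 36 and 10, without replicate 3 they were 90 and 25, and without replicate 6 they were 74 and 35.

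Among genes with an SD of at least 0.5, WRKY2, a WRKY transcription factor, followed the component most closely. It had r = 0.996 and measured 10.18 on replicate 4 at the lowest, 10.62 at the median and 11.57 on replicate 1 at the highest. RBOH1 had r = 0.994, PPCK2, a kinase of phosphoenolpyruvate carboxylase, r = 0.993 with a level of 11.04 ± 0.79, EIL3 r = 0.992 and AREB1 r = 0.988. The proline transporter gene ProT1 (level 9.68 ± 0.51) had r = 0.989 and the bZIP gene abz1 (level 7.37 ± 0.54) r = 0.988. From the lists, ACO6, PTI4, ERF4, fsm1, OVATE, CHI3, CHI17, Eix1, PT1 and loxD had correlations between 0.945 and 0.985. These correlations rest on 6 arrays that share their normalization, and are given as a description.

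Some genes ran the opposite way. DDTFR18 had r = -0.991, LIN7 r = -0.952, cel5 r = -0.948 and EXP2 r = -0.944. AGAL, an α-galactosidase, had r = -0.947 and measured 11.58 on replicate 1 at the lowest, 12.87 at the median and 13.13 on replicate 5 at the highest. IMP3, an inositol monophosphatase, had r = -0.936 with a level of 10.37 ± 0.61, and UCP, a mitochondrial uncoupling protein, r = -0.93 with a level of 10.74 ± 0.67. FRK3 had r = -0.912. Each of these was lowest on replicate 1. The photosynthesis genes had weaker negative correlations, from -0.33 to -0.76, and were lowest on replicate 1 as well.

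**Figure D4:**
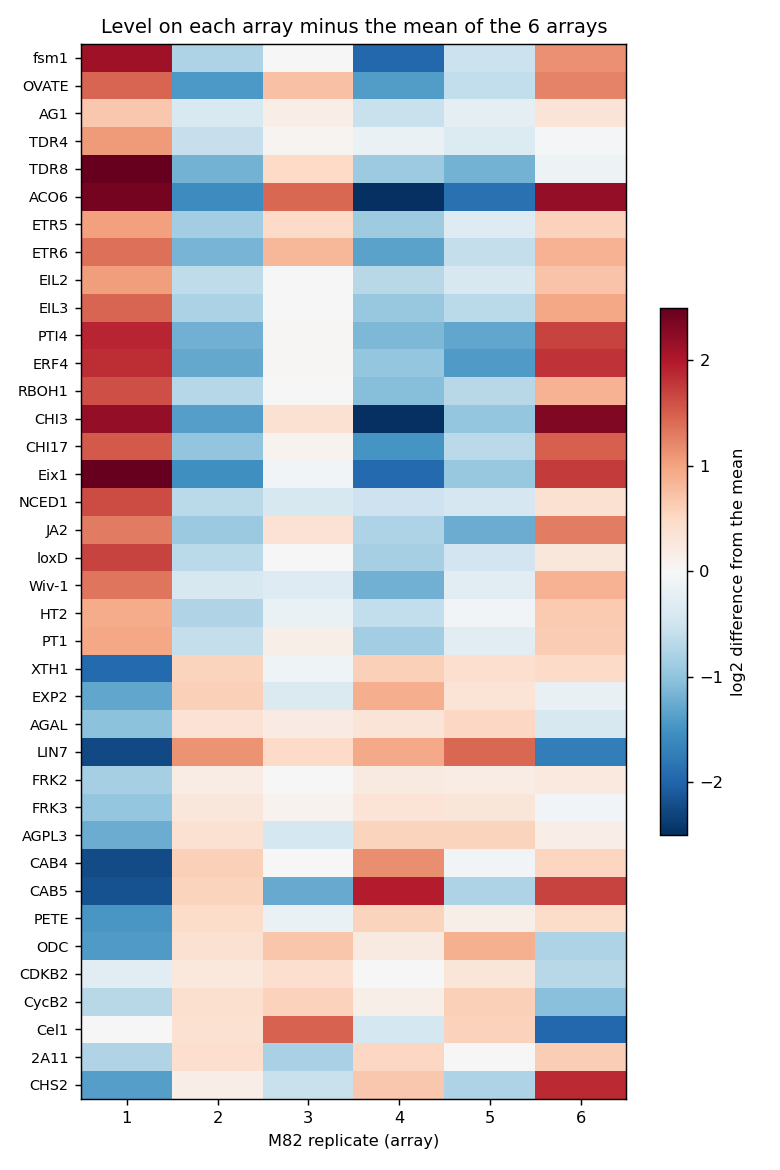
Each row is a named gene (the probe set with its highest mean) and each column an M82 array, coloured by the log2 level on that array minus the gene's mean, with colours clipped at the ends of the scale; rows were chosen after the values were seen. The upper rows, from fsm1 to PT1, are high on replicate 1 and mostly on replicate 6, the rows from XTH1 to PETE are low on replicate 1, and CDKB2, CycB2 and Cel1 are lowest on replicate 6.

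The component was set beside 7 technical measures of the same arrays, each over 6 arrays with exact two-sided permutation tests over 720 orders. The array median had r = 0.836 (exact p = 0.0375, adjusted over the 7 measures 0.263) and ρ = 0.886 (exact p = 0.0333, adjusted 0.233). Without the 2 arrays farthest from the middle of the medians, r was 0.863. The difference between 3′ and 5′ probe sets of the GAPDH control had r = 0.739 (exact p = 0.0972, adjusted 0.34) and ρ = 0.543 (exact p = 0.297, adjusted 1), and r was 0.239 without the 2 farthest arrays. The other measures, which were the same difference for actin, EF1α and the added dap control and the mean levels of the poly-A and hybridisation controls, had r between −0.304 and 0.121, with adjusted exact p = 0.882 for each. On the 4 arrays left without the 2 farthest, r was 0.921 for EF1α, −0.551 for actin, −0.509 for dap, −0.131 for the poly-A controls and 0.0931 for the hybridisation controls. None of the 7 relations passed a false discovery rate of 0.05. Beyond these correlations, the part of array level and RNA quality in the component was not tested.

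Replicate 5 stood apart in these control measures. Its dap probe sets differed by 3.78 between 3′ and 5′ ends, against 1.93 to 2.36 on the other arrays, and its actin probe sets by 0.29, against −0.20 to −0.04. A few named probe sets were low on replicate 5 alone. The dimmer probe set of the blue light receptor gene CRY1A measured 8.63 on it, against a lowest value of 10.23 on the other arrays, while the other CRY1A probe set averaged 11.06 ± 0.16. A probe set of adc1, the arginine decarboxylase gene, measured 8.73 on it, while the other 3 adc1 probe sets averaged between 12.24 ± 0.39 and 12.65 ± 0.38. Whether this reflects degraded RNA in replicate 5 was not tested. Leaving out replicates 1 and 5 together left 45 named probe sets with an SD above 1.

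**Figure D5:**
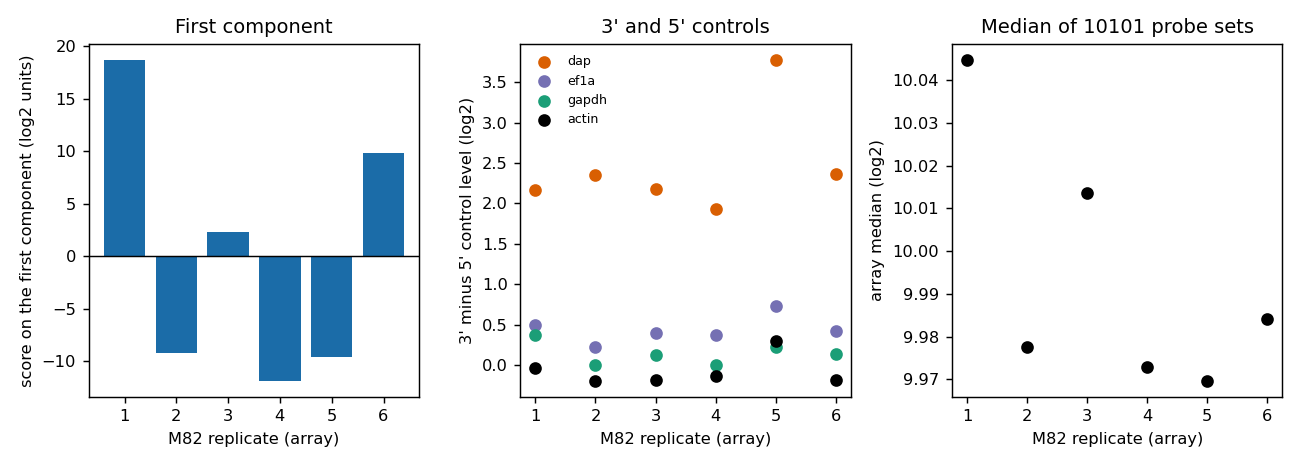
From left to right, the panels give for each of the 6 M82 arrays the score on the first component (log2 units), the 3′ minus 5′ level of 4 controls (log2) and the median level of all 10101 probe sets (log2, axis not from 0). Replicates 1, 6 and 3 have positive scores, replicate 5 has the largest 3′ minus 5′ difference for dap, 3.78, and the medians differ by less than 0.1.

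Where several probe sets carry the same symbol, they give separate readings under it, which need not be of the same transcript. There were 83 such symbols with 138 pairs of probe sets, and the median correlation of a pair over the 6 arrays was 0.776, against 0.0257 over 412548 pairs of different symbols. Of the same-symbol pairs 17 had a correlation below 0. Where both probe sets were detected on all arrays with an SD of at least 0.5, which left 13 pairs, the median was 0.962 and 9 pairs were above 0.9. Pairs of different symbols under the same limits had a median of 0.0912 and a median size of r, sign ignored, of 0.69, with 17% beyond 0.9 in either direction. The 3 probe sets of ACO6 correlated at 0.99 or more with each other, and those of BMY3 at 0.91 to 0.98. FESOD, the iron superoxide dismutase, was the exception, with r = −0.42. Its probe sets averaged 12.03 ± 1.01 and 7.98 ± 1.60, the brighter one lowest and the dimmer one highest on replicate 1, so no direction is given for FESOD.

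Levels under the same symbol often differed, and no such gap was computed for pairs of different symbols. The probe sets of a pair differed in mean level by a median of 1.82, and 64 of the 138 pairs differed by more than 2. In some pairs, as for IAA16 at 8.28 and 11.98, the identifiers differ by A1 and S1. Whether both target the same strand was not checked, so a gap in level need not be a disagreement over the same transcript. For CIP2a the probe sets averaged 12.83 ± 0.04, 11.92 ± 0.11 and 4.06 ± 0.09, the last never above the control level. ERF3 averaged 10.82 ± 0.38 by its brighter probe set, while the other, at 4.61 ± 0.10, was never above it. VPE5 spanned 7.66 ± 0.10 to 13.19 ± 0.22, and 4 probe sets of MT4 spanned 7.22 ± 0.35 to 13.37 ± 0.39. The 4 probe sets of ca2 lay between 3.82 ± 0.07 and 5.44 ± 0.44, and those of psi14B between 3.98 ± 0.11 and 5.10 ± 0.12. A symbol read as absent by its probe sets here may thus be present by others. Probe sets whose identifier carries s or x, as for MT4, ARG2, RPL3 and TDR4, can share probes with related transcripts, and their levels may sum several genes.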

How the data were processed

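RNA of whole carpels was biotin-labelled by the single-cycle protocol and hybridised to an Affymetrix tomato array, 1 sample per array, per the labels. Values are log2 intensities, 1 per probe set and array, as the authors deposited them after processing with affy, per the submitters' processing notes. The sources used here give neither its version nor how background, normalization and summarization were done. The base of 2 was inferred from the range, 3.31 to 14.7. The 6 M82 columns were used as they stood, and control probe sets were left out. Names come from the platform annotation of 2007.

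Means, SDs, level bands, principal components and correlations were computed with Python 3.11.15, numpy 2.4.6, pandas 2.3.3 and scipy 1.17.1, and the code was tested on simulated data. No comparison between groups was made. Members, gene lists and the naming rule were chosen with earlier results of these data known, and the lists were written after the symbols were seen. The rule takes, by the brightest probe set of each symbol, the 20 highest and 15 lowest means, the 20 largest and 8 smallest SDs of those above the stricter background on all 6 arrays, the 8 highest and 8 lowest correlations with the first component of those with an SD of at least 0.5, members of each list, and symbols with 3 or more probe sets. The rule for background fixed at the start caught added poly-A controls, so the 23 unspiked controls were chosen after the data were seen. Depth does not apply to arrays. Alternatives were other centring, background, filters, 1 probe set per symbol and leaving out each array.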

Additional observations from a re-analysis of the deposited data

Results flagged for a closer look

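On each probe set named in the text, the gap between an end array and its nearest neighbour was set against the whole range, and 27 of 240 probe sets (11.25%) had a single array apart from the other 5, against 80 of 909 named probe sets (8.80%). Chance alone sets about 1 in 20 groups apart in this way.

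Replicate 1 was the low array for 9 of the 27. FRK2 measured 12.70, against 13.52 to 13.77 on the other arrays, and FRK3 11.32, against 12.23 to 12.64. CAB4 measured 10.17, against 12.32 to 13.56 on the other arrays, and FESOD 10.08, against 11.92 to 12.78. XTH1 measured 11.28, against 13.13 to 13.82 on the other arrays, and SAM3 13.31, against 13.89 to 14.16. EXP5 measured 12.31, against 12.999 to 13.23 on the other arrays, and ltpg1 13.63, against 13.90 to 14.02. PETE measured 11.36, against 12.65 to 13.38 on the other arrays.

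Replicate 1 was the high array for 6. ARG2 measured 11.40, against 8.33 to 9.38 on the other arrays, and PR1b1 5.88, against 4.19 to 4.64. NHX1 measured 10.35, against 7.73 to 8.52 on the other arrays, and HSP17.4 6.67, against 5.001 to 5.35. AGL11 measured 12.24, against 11.02 to 11.38 on the other arrays, and DIG3 11.66, against 8.89 to 9.85.

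On replicate 3, the low array here, LEA14 measured 12.23, against 12.48 to 12.56 on the others. On replicate 3, the high array here, TKN3 measured 8.40, against 5.60 to 6.18 on the others, and E8 5.65, against 4.94 to 5.17. On replicate 4, the high array here, PRK2 measured 4.15, against 3.90 to 3.96 on the others. On replicate 5, the low array here, CRY1A measured 8.63, against 10.23 to 10.57 on the others, and adc1 8.73, against 10.48 to 11.28. On replicate 5, the high array here, ACS3 measured 4.93, against 4.66 to 4.73 on the others, and GAI 10.48, against 8.98 to 9.42. On replicate 6, the low array here, gad2 measured 14.41, against 14.58 to 14.62 on the others. On replicate 6, the high array here, MT2 measured 6.43, against 4.41 to 4.93 on the others, and TAPG4 4.27, against 3.96 to 4.04. TAPG1 measured 5.63, against 4.08 to 4.63 on the others.

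The FESOD value belongs to the brighter of its probe sets, and those of CRY1A, ARG2 and adc1 to a single probe set of several. The cause of these gaps was not tested.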

How the results depend on the processing

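Of 111 alternatives to 13 counts, shares and medians, 106 stayed close to the value described and 5 moved by over 1.5 times. For the levels of single genes, leaving out an array, taking the median or centring cannot move a mean of 6 by 1 SD, so those alternatives say nothing about stability. With the 5th percentile of all probe sets as background, 33 named probe sets never exceeded it, in place of 200; this threshold is lower by construction. Over the arrays left out in turn, the count of named probe sets that correlated above 0.9 with the first component ran from 36 to 90, and the count below −0.9 from 10 to 35. The lowest of both came without replicate 1, and the highest without replicate 3 for the positive and without replicate 6 for the negative count; the cause was not tested. With the unspiked controls, 80 to 86 probe sets were never above background without a replicate, and 63 with the TrpnX controls alone. The share of the first component ran from 62.2% to 75.7% without a replicate and was 50.5% with each probe set scaled to an SD of 1. No paired analysis was possible because only 1 group was described and no test between groups was made. The number of arrays and the unknown summarization limit what low levels can show.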
